A study of Mus musculus with 39 samples.

Results

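Histone deacetylases (HDACs) of class I work as parts of multi-subunit corepressor complexes, and 9 genes coding for non-catalytic subunits of these complexes were followed here through mouse oocytes and preimplantation embryos. The 9 genes were Sin3a and Sin3b of the Sin3 complex, Ncor1 of the NCoR complex, Rcor1 of the CoREST complex, and Mta1, Mta2, Mta3, Chd4 and Mbd3 of the NuRD complex. They were chosen by name, from the gene names given for the probes in the scanner files, which assigned 17 of 55681 probes to them. All 9 were among the 14825 genes tested.

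The arrays measured RNA of oocytes, and of embryos obtained by in vitro fertilization. The strain was given as B6D2F1 x ICR, and by the paper's methods MII oocytes came from B6D2F1 females and sperm from ICR males. Each array held RNA from a pool of 100 oocytes or embryos. There were 39 arrays in 13 conditions, 3 arrays per condition. Untreated material covered germinal vesicle (GV) and metaphase II (MII) oocytes, 1-cell, 2-cell, 4-cell and 8-cell embryos, morulae and blastocysts, and these untreated embryos were the controls. Treated zygotes were kept in medium with T247, an inhibitor selective for HDAC3, or with MGCD0103, a benzamide inhibitor of class I HDACs, at 10 µM for 6 h starting 4 h post insemination (hpi). They were then cultured without inhibitor and collected at 12 hpi (1-cell), 24 hpi (2-cell) and, for T247 only, 48 hpi (4-cell). Embryos were therefore assayed after the inhibitor had been withdrawn. All embryos, treated or not, came from in vitro fertilization and culture, and the pools do not show differences between single embryos.

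Class I HDACs remove acetyl groups from histone tails and have little access to chromatin on their own. Sin3 proteins are scaffolds that bring HDAC1 and HDAC2 to transcription factors, NCoR holds and activates HDAC3, and CoREST joins HDAC1 or HDAC2 to the histone demethylase KDM1A. In NuRD, the MTA proteins hold and activate HDAC1 or HDAC2, CHD4 is the ATPase that moves nucleosomes, and MBD3 links the deacetylase subunits to the remodelling subunits. An oocyte stores maternal transcripts, which are degraded in steps after maturation and fertilization, and the main wave of zygotic transcription in the mouse starts at the 2-cell stage.

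Values are normalized log2 signals, and a log2 fold change (LFC) is the difference of 2 condition means on that scale. A gene was called when its LFC was at least 1 in size and its adjusted p, by limma with Benjamini-Hochberg adjustment over the 14825 genes, was below 0.05, and "rose" and "fell" are kept for called genes. No spot was saturated, and between 44.4% and 58.3% of probes per array were well above background. All 8 oocyte markers (Gdf9, Zp3 and others) were well above background on every array from GV to the 2-cell stage, 4 of 4 measured 2-cell markers were so at the 2-cell stage, and 8 of 8 blastocyst markers in blastocysts. These counts were met elsewhere too (8 of 8 blastocyst markers in both treated 2-cell groups, 7 of 8 in control 2-cell embryos, and 4 of 4 2-cell markers at the 4-cell, 8-cell and blastocyst stages), and do not by themselves tell the stages apart. One array stood apart: control 2-cell replicate 1 correlated at r = 0.934 and 0.944 with the other control 2-cell arrays, which correlated at 0.995 with each other. For the subunit genes followed here, called LFCs of the brightest probe that rest on this array are given with and without it. Values of further probes, of other subunits of the complexes and of all genes are given only with this array. Control and treated arrays never shared a slide or a scan batch, so slide, scan and treatment cannot be told apart, and T247 and MGCD0103 were set against the same control arrays. Normalization within each condition left the median LFC of all genes away from 0 in several comparisons (by -0.96 from GV to MII, -0.49 from the 1-cell to the 2-cell stage, 0.56 from the 8-cell stage to the morula and -0.28 for T247 at the 2-cell stage), and scaling each array to its 75th percentile moved it, so both are given where a call turns on them. In pooled RNA, fewer embryos expressing a gene and less RNA per embryo cannot be told apart.

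The largest changes among the 9 genes were those of Mta2, which like Mta1, Sin3a and Chd4 rests on 1 probe. The Mta2 probe is named A_51_P164207 in the files and placed on the plus strand at mm9 chr19:9026535-9026594. Its first 30 bases and those of the probes of Mta1 (A_55_P2415372, plus strand, mm9 chr12:114374583-114374642) and Mbd3 (A_66_P127024, minus strand, mm9 chr10:79855402-79855461) are shown because Mta2 and Mta1 had the largest changes and Mbd3 was called lower under T247. No part of them is marked.
Mta2: tgccatgtctcatttttccttattttctaa
Mta1: ggcgaatgaactggatcgacgccccagatg
Mbd3: gctggaggaagtttctggaaacacacctgg

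Mta2 stood low in oocytes and zygotes and high from the 2-cell stage on. Its control levels were 8.33, 8.12 and 8.04 on the 3 GV arrays, 7.70, 7.68 and 7.44 in MII oocytes and 7.61, 7.41 and 7.42 in zygotes. At the 2-cell stage they were 12.10, 13.44 and 13.49, the lowest being replicate 1, the array that stood apart. All arrays of the first 3 stages lay far below all 2-cell arrays. The rise from the 1-cell to the 2-cell stage was 46.2-fold (LFC 5.53, SE 0.21, adjusted p = 5.91e-20), or LFC 5.98 without control 2-cell replicate 1, and within each of the 3 slides that held both stages it was 4.49, 6.03 and 6.07. Afterwards the condition mean stayed between 13.12 and 13.55 through the blastocyst, and none of the 4 later transitions was called for Mta2. In these 1-cell to 2-cell comparisons 18.2% of all genes were called higher and 33.9% lower.

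**Figure D1:**
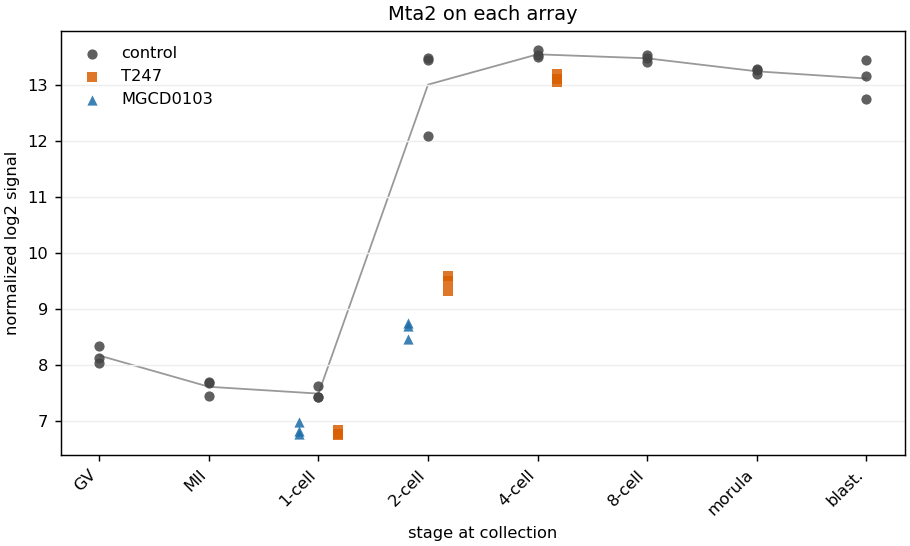
Normalized log2 signal of Mta2 (vertical axis) on each of the 39 arrays by stage at collection (horizontal axis), with a line through the means of the untreated controls. The control arrays go from between 7.41 and 7.61 at the 1-cell stage to between 12.10 and 13.49 at the 2-cell stage, and the 2-cell arrays of both inhibitors lie below all control 2-cell arrays.

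After either inhibitor, the 2-cell level of Mta2 was far below that of the controls. T247-treated 2-cell embryos gave 9.58, 9.32 and 9.51, and MGCD0103-treated 2-cell embryos gave 8.46, 8.69 and 8.74. None of these 6 arrays reached the lowest control array. Mta2 fell 11.6-fold under T247 (LFC -3.54, SE 0.21, adjusted p = 5.99e-14) and 20.9-fold under MGCD0103 (LFC -4.38, SE 0.21, adjusted p = 3.19e-16). Without control 2-cell replicate 1 the LFCs were -4.0 and -4.84. Over all genes, 17.1% were called lower under T247 and 16.2% under MGCD0103 at this stage.

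Mta2 was not without change under the inhibitors: from the 1-cell to the 2-cell stage it rose by 2.69 with T247 (6.46-fold, adjusted p = 8.04e-13) and by 1.78 with MGCD0103 (3.43-fold, adjusted p = 7.85e-09), against 5.53 in controls. At the 1-cell stage it was already slightly lower in treated zygotes, at 6.84, 6.77 and 6.74 with T247 and 6.82, 6.76 and 6.97 with MGCD0103. These 6 values lay below the lowest control value, but the LFCs of -0.70 (adjusted p = 0.0145) and -0.63 (adjusted p = 0.0389) were under the size needed for a call. The difference between the 2-cell and the 1-cell effect was itself called for both compounds (-2.84, adjusted p = 1.52e-08, for T247, and -3.75, adjusted p = 3.88e-11, for MGCD0103), as were 20.2% and 23.2% of all genes.

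By the 4-cell stage the gap had nearly closed in the T247 embryos, the only treated ones at that stage. The paper reports that MGCD0103-treated embryos did not reach it, and proposes that T247 may delay development. Whether treated and control embryos collected at the same hour were equally advanced was not tested. T247 4-cell arrays gave 13.07, 13.11 and 13.19 for Mta2, and control arrays 13.54, 13.50 and 13.62. The arrays still did not overlap, but the LFC of -0.43 had an adjusted p of 0.0892 and was not called. The change in the T247 effect from the 2-cell to the 4-cell stage was called at 3.11 (SE 0.29, adjusted p = 2.9e-09), where 27% of all genes were called. Mta2 rose 12.6-fold between these stages with T247 (LFC 3.65, adjusted p = 3.98e-16), while over the same interval the controls differed by an LFC of 0.54, which was not called and was 0.086 without control 2-cell replicate 1.

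Mta1 took another course in untreated embryos, with its low point at the 4-cell and 8-cell stages. Its levels were 10.33, 10.16 and 9.94 in GV oocytes, 8.30, 8.01 and 8.09 in 2-cell embryos, and 4.25, 4.42 and 4.26 in 4-cell embryos. The 2-cell and 4-cell arrays were far apart, and the 4-cell values were close to the detection limit: on 4-cell control replicate 1 the probe was not well above background, with a processed intensity of 16.4. Mta1 fell 14.2-fold from the 2-cell to the 4-cell stage (LFC -3.82, SE 0.20, adjusted p = 9.92e-17), and with a background correction that lifts dim signals (normexp) the LFC was -2.06, still called. Without control 2-cell replicate 1 it was -3.92. It rose again from the 8-cell stage to the morula (1.59, adjusted p = 6.7e-08) and from the morula to the blastocyst (2.21, adjusted p = 1.92e-10), reaching 8.94, 8.49 and 8.28. With each array scaled to its 75th percentile, the rise into the morula was 0.91 and not called, nor was it with normexp (0.66).

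Neither inhibitor called Mta1 at any stage. At the 2-cell stage T247 gave 7.55, 7.60 and 7.53, all below the controls (LFC -0.57, 95% interval -0.99 to -0.15), while MGCD0103 gave 8.26, 8.30 and 8.20, within the control range (0.12, 95% interval -0.30 to 0.54). At the 4-cell stage T247 and control arrays overlapped.

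Mta3, the third MTA paralog, was lowest at the 2-cell stage. Control levels were 14.03, 13.80 and 13.78 in zygotes, 12.72, 11.63 and 11.71 in 2-cell embryos, and 13.26, 13.27 and 13.23 at the 4-cell stage. The 2-cell arrays lay below both neighbouring stages, with replicate 1 again the one nearest to the 1-cell values. Mta3 fell by 1.85 into the 2-cell stage (adjusted p = 1.19e-10; fall of 2.15 without replicate 1) and rose by 1.23 into the 4-cell stage (adjusted p = 2.53e-07; 1.54 without replicate 1). T247 lowered it at the 4-cell stage to 12.19, 12.00 and 12.40, all below the controls (LFC -1.05, SE 0.18, adjusted p = 1.6e-05). That call sat at the size threshold: it was lost, with LFCs of -0.92 and -0.91, under 75th percentile and quantile scaling, at -0.98 with normexp and -0.93 with the mean of probes, and with LFCs between -0.99 and -0.97 when control replicate 3, T247 replicate 1 or T247 replicate 2 was left out. A second kept probe of Mta3 gave -0.80.

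The other NuRD subunits ranged less over the untreated stages. Chd4 ranged over only 1.49 log2 units across untreated stages, and 6.70% of all genes ranged less, and Mbd3 over 1.85. Chd4 fell by 1.23 from the 1-cell to the 2-cell stage (adjusted p = 1.25e-08), from between 14.99 and 15.13 to 14.48, 13.43 and 13.52. The 2-cell value of replicate 1 lay above the other two, and without it the fall was 1.57, while the call was lost at -0.64 with 75th percentile scaling. MGCD0103 2-cell arrays held 14.80, 14.79 and 14.79, above all controls, and the LFC of 0.98 missed the size threshold (adjusted p = 1.95e-06); it was called at 1.32 without control replicate 1 and at 1.04 without MGCD0103 replicate 2, and also at 1.23 with 75th percentile scaling, 1.05 with quantile normalization and 1.29 with array weights. Mbd3 fell at the 2-cell stage under T247, from 12.52, 12.96 and 12.85 in controls to 11.63, 11.61 and 11.60 (LFC -1.17, SE 0.12, adjusted p = 4.24e-09; -1.31 without control replicate 1), with no overlap. MGCD0103 gave 12.15, 12.26 and 12.19 (-0.58, adjusted p = 0.000221), again below all controls but not called. The T247 call on Mbd3 was lost under 75th percentile scaling (-0.67) and quantile normalization (-0.74), while a second probe of the gene gave -1.55. In T247 4-cell embryos Mbd3 had an LFC of -0.84 (adjusted p = 2.61e-06), not called, and its second probe was called at -1.12.

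**Figure D2:**
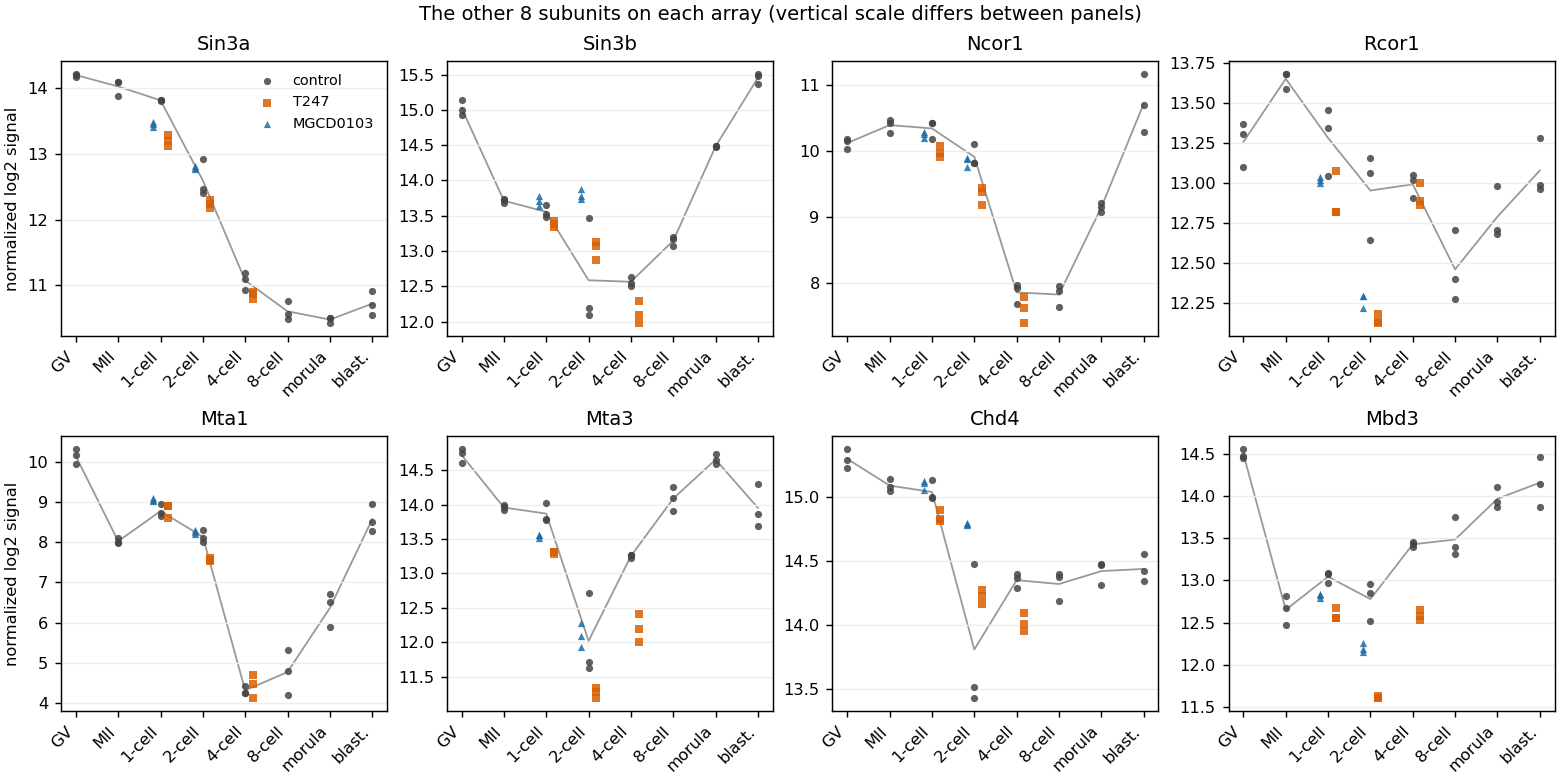
Normalized log2 signal (vertical axes, scaled for each gene) of the other 8 subunits on each array by stage (horizontal axes), with a line through the control means. Mta1 and Ncor1 are lowest at the 4-cell and 8-cell stages, Sin3a falls through the 4-cell stage and stays low, and one control 2-cell array of Sin3b, Mta3 and Chd4 lies above the other 2.

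The Sin3 scaffolds parted after the 2-cell stage. Sin3a, the scaffold needed for early embryonic survival in mice, was at 13.82, 13.81 and 13.82 in control zygotes, 12.92, 12.40 and 12.46 in 2-cell embryos and 10.93, 11.19 and 11.10 at the 4-cell stage. It fell by 1.22 (adjusted p = 2.88e-11) and then by 1.52 (adjusted p = 1.12e-13), or by 1.35 and 1.39 without control 2-cell replicate 1, and no later transition was called. The first of these falls was not called with 75th percentile scaling (-0.63) or quantile normalization (-0.57), the second was called under every alternative. T247 zygotes gave 13.29, 13.12 and 13.20 and MGCD0103 zygotes 13.49, 13.45 and 13.41, all below the controls, with LFCs of -0.61 (adjusted p = 0.000123) and -0.37 (adjusted p = 0.0217) that were too small to be called.

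On its brightest probe Sin3b, the paralog of Sin3a, was lowest at the 2-cell and 4-cell stages and highest in blastocysts, at 15.48, 15.51 and 15.37. It rose by 1.34 into the morula (adjusted p = 2.77e-07), a value of 0.57 and not called with 75th percentile scaling. From the 1-cell to the 2-cell stage its LFC was -0.97, which was called at -1.37 without control 2-cell replicate 1 and at -1.01 without control 1-cell replicate 1. From the morula to the blastocyst it was 0.97, called at 1.03 to 1.07 when morula replicate 2 or 3 or blastocyst replicate 1 was left out. MGCD0103 raised it at the 2-cell stage to 13.88, 13.78 and 13.73, above the control values of 13.47, 12.10 and 12.19 (LFC 1.22, SE 0.19, adjusted p = 2.49e-06). The LFC was 1.62 without control replicate 1 and 0.99, not called, without control replicate 3. T247 gave 12.88, 13.07 and 13.13, inside the control range (0.44, adjusted p = 0.045, or 0.85 without control replicate 1, not called).

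Sin3b is also the gene on which the probes differed most, so both are shown. The brightest one lies at mm9 chr8:75263729-75263788 and the other at mm9 chr8:75281185-75281244, both on the plus strand, and the files pair them with different RefSeq accessions. The exons they fall in were not used here.
Sin3b brightest: atggtggatttctagacctgtcactctgtt
Sin3b other: atgggtgaggaagaggaggacatggtaccc
The second probe was lowest in the late stages, with means of 8.47 at the 1-cell stage and between 4.76 and 4.99 from the 8-cell stage to the blastocyst. It was not well above background on 1 array each of 8-cell embryos, morulae and blastocysts. It fell by 2.31 from the 1-cell to the 2-cell stage, where the first gave -0.97, and gave 0.21 from the 8-cell stage to the morula against 1.34. From GV to MII it gave 0.03 against -1.31. Under T247 at the 2-cell stage the second probe gave -0.50 against 0.44 on the brightest, neither called. It gave 0.81, not called (adjusted p = 0.0617), under MGCD0103 at the 2-cell stage. None of the 3 calls on the brightest probe between conditions was thus shared by the second one.

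Ncor1, the scaffold that activates HDAC3, followed a course like that of Mta1. Its levels were 10.11, 9.81 and 9.82 in 2-cell embryos, 7.96, 7.92 and 7.67 in 4-cell embryos and 7.95, 7.88 and 7.63 in 8-cell embryos. They then stood at 9.21, 9.15 and 9.07 in morulae and between 10.28 and 11.18 in blastocysts. Ncor1 fell by 2.06 from the 2-cell to the 4-cell stage (adjusted p = 9.18e-14; fall of 2.09 without control 2-cell replicate 1), rose by 1.33 into the morula (adjusted p = 4.03e-09; 0.59 and not called with 75th percentile scaling) and by 1.57 into the blastocyst (adjusted p = 2.24e-10). Across the 13 condition means, which share arrays and normalization, Ncor1 and Mta1 correlated at r = 0.935, the highest value among the 9 genes, and Mta2 and Sin3a at -0.892. On its brightest probe no inhibitor comparison called Ncor1, the HDAC3 inhibitor T247 giving -0.36 in zygotes, -0.58 in 2-cell embryos and -0.26 in 4-cell embryos.

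Ncor1 had 4 kept probes, and they did not move alike. The fall from the 2-cell to the 4-cell stage was -1.98 on A_55_P2165974 and -0.67, not called, on A_55_P2165969. The other probe, A_55_P2121466, was well above background on 0 of 3 control arrays at the 4-cell and at the 8-cell stage, so no size is given for it there. A_55_P2165969 gave -0.41 from the 8-cell stage to the morula. It was also the only Ncor1 probe called under an inhibitor, at -1.39 (adjusted p = 3.33e-05) in T247 4-cell embryos. From GV to MII the brightest probe gave 0.27, A_55_P2121466 fell by 1.40 and A_55_P2165974 rose by 1.03, so that 2 probes of the gene were called in opposite directions. Over 5 genes with more than 1 kept probe and 12 comparisons, 17 pairs had a called brightest probe, the other probe was called the same way in 10 of them (2 of these being A_55_P2121466 at the stages where it was not well above background), and in none was it called against the brightest one.

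**Figure D3:**
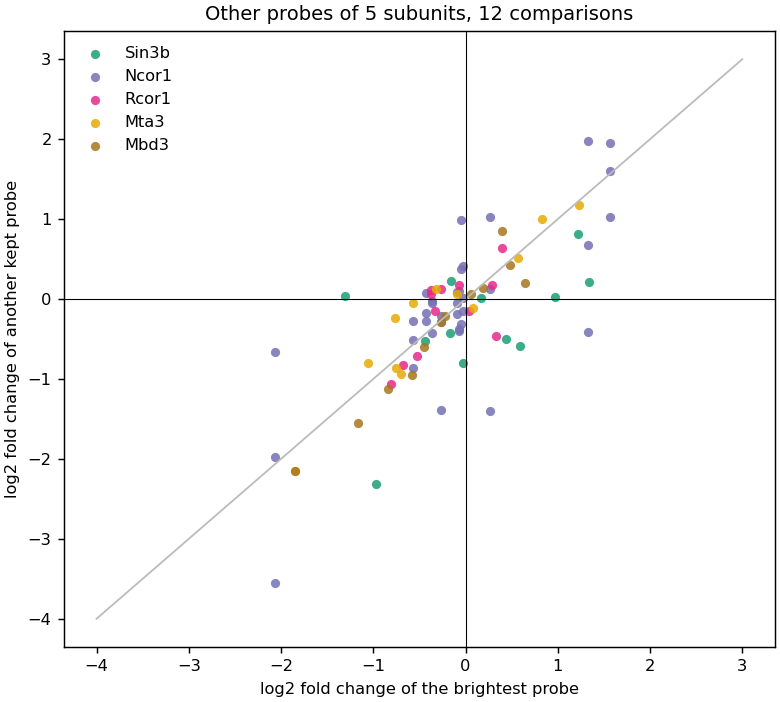
LFC of each further kept probe (vertical axis) against that of the brightest probe of the same gene (horizontal axis), 1 point per probe and comparison, with a line where both are equal. Points of Mbd3 and Mta3 lie near the line, those of Sin3b and Ncor1 are more scattered, and the lowest Ncor1 point is A_55_P2121466 where it was not well above background.

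Rcor1, the CoREST scaffold, was the steadiest of the 9 genes on the brightest probes, with a range of 1.19 log2 units over untreated stages. On its second kept probe the untreated means ran from 8.77 at the 1-cell stage down to 7.29 in morulae. At the 2-cell stage it was at 12.64, 13.16 and 13.06 in controls, 12.18, 12.13 and 12.12 with T247 and 12.29, 12.22 and 12.30 with MGCD0103. All 6 treated arrays lay below the controls, and the LFCs of -0.81 (adjusted p = 3.98e-06) and -0.68 (adjusted p = 4.74e-05) were not large enough for a call. The second Rcor1 probe gave -1.07, called, for T247 at the 2-cell stage.

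**Figure D4:**
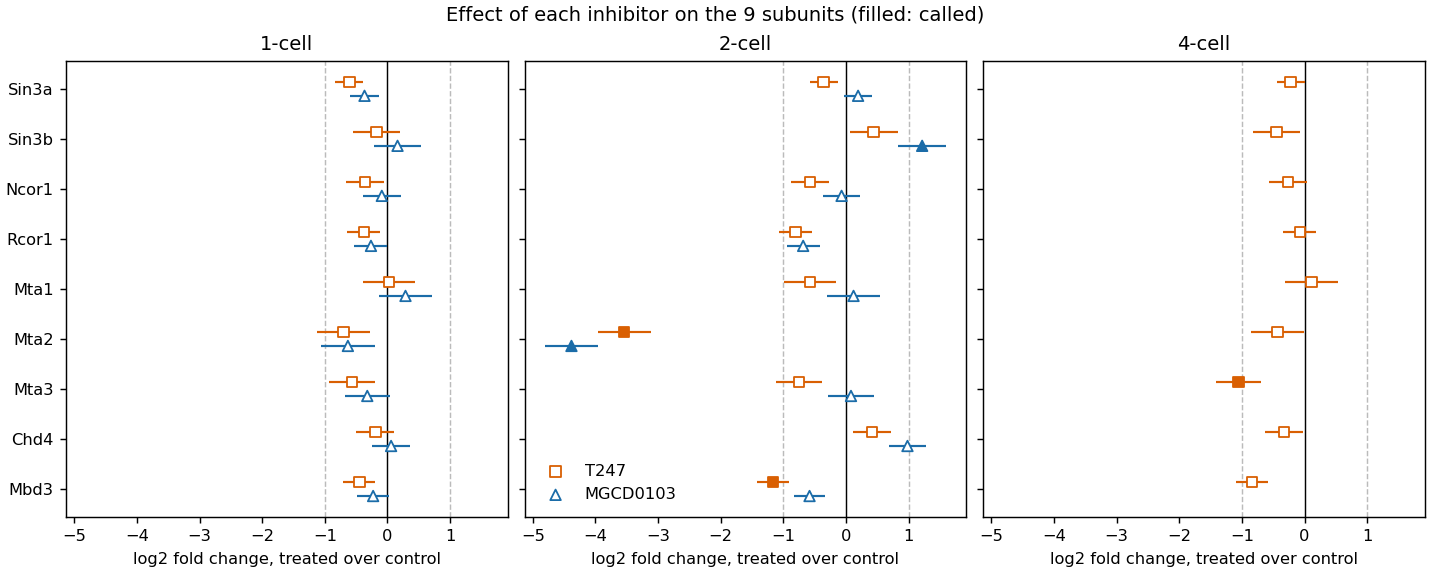
LFC of each subunit in treated over control embryos (horizontal axes, with 95% intervals from limma) at 3 stages, with filled symbols for called values and dashed lines at -1 and 1. Mta2 at the 2-cell stage lies apart from all other points, at -3.54 for T247 and -4.38 for MGCD0103.

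Counted over the 9 genes, the inhibitor comparisons called between 0 and 2 members. By limma, 0 of 9 were called in zygotes by T247 (6.33% of all genes) and 0 of 9 by MGCD0103 (4.16%, 527 higher and 89 lower, or 339 and 122 with quantile normalization), with 6 and 3 members at an unadjusted p below 0.05 (32.2% and 26.3% of all genes). At the 2-cell stage 2 of 9 were called under T247 (Mta2 and Mbd3, both lower), where 25.4% of all genes were called (8.32% higher, 17.1% lower), 1233 higher and 2532 lower, or 2540 higher and 985 lower with 75th percentile scaling. Under MGCD0103 it was 2 of 9 (Mta2 lower, Sin3b higher), where 28% of all genes were called (11.8% higher, 16.2% lower), 1743 higher and 2408 lower (2737 and 1769 with 75th percentile scaling). T247 at the 4-cell stage called 1 of 9 (Mta3), with 17.4% of all genes (6.37% lower), 1629 higher and 945 lower (2110 and 627 with that scaling). The shares of called members thus lay near or below those of all genes. By adjusted p alone, 9 of 9 members were below 0.05 under T247 at the 2-cell stage, as were 55.5% of all genes (both directions together). Of the members 7 were lower and 2 higher in the main fit, a split that depends on the processing. Apart from leaving out arrays, the alternatives ran from -0.40 to 0.11 for Sin3a and from -0.50 to 0.92 for Sin3b. They ran from -0.59 to -0.09 for Mta1 and from -0.87 to -0.10 for Ncor1. Only Sin3a and Sin3b changed direction. The median LFC of the 9 genes under T247 at the 2-cell stage was -0.58, against -0.28 over all genes, and under MGCD0103 0.08 against 0.04.

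Set directly against each other at equal dose and time, the 2 inhibitors differed in no member by a called amount on the brightest probes, in 9 genes at 2 stages and with p adjusted over all genes. The T247 arrays of these stages lay on 1 slide and the MGCD0103 arrays on another, scanned in different batches, so compound, slide and scan cannot be told apart. At the 1-cell stage 0 of 9 were called by limma (0.277% of all genes, 9 higher with MGCD0103 and 32 lower, or 4 and 46 with 75th percentile scaling; 1 member and 8.88% of all genes at an unadjusted p below 0.05), and the differences ran from 0.07 to 0.34. At the 2-cell stage 0 of 9 were called (6.15% of all genes, 492 higher with MGCD0103 and 419 lower, or 96 and 742 with 75th percentile scaling), though 8 had an adjusted p below 0.05, as did 37.6% of all genes. Mta2 was lower with MGCD0103 than with T247 (-0.84, 95% interval -1.27 to -0.42, adjusted p = 0.00247), and this difference was called at -1.07 and -1.21 under the 75th percentile and quantile scalings. The members higher with MGCD0103 included Mta3 (0.83, 95% interval 0.47 to 1.19) and Sin3b (0.77, 95% interval 0.39 to 1.16; called at 1.31 on its second probe and at 1.03 with the mean of probes), against a median over all genes of 0.24. For Rcor1 the difference of 0.12 had an interval from -0.14 to 0.39.

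In untreated material the number of called members by transition was 3 of 9 from GV to MII (49.3% of all genes), 0 of 9 from MII to the 1-cell stage (22.9%; 3 members and 53.6% of all genes at an unadjusted p below 0.05 by limma) and 4 of 9 into the 2-cell stage (52.2%). It was 4 of 9 into the 4-cell stage (59.9%), 0 of 9 into the 8-cell stage (14.7%; 5 members and 49.7% of all genes at an unadjusted p below 0.05), 3 of 9 into the morula (38%) and 2 of 9 into the blastocyst (27.2%). With 75th percentile scaling the called genes split 5272 higher and 3161 lower, instead of 78 and 7236, from GV to MII, and 3807 and 2914, instead of 2703 and 5029, into the 2-cell stage. The split was 898 and 1215, instead of 1189 and 985, into the 8-cell stage, 2004 and 2538, instead of 4703 and 924, into the morula, and 2185 and 1648, instead of 2873 and 1165, into the blastocyst. With quantile normalization it was 1759 and 1198, instead of 2550 and 838, from MII to the 1-cell stage.

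The GV to MII step has no settled direction for several members. Sin3b, Mta1 and Mbd3 were called at -1.31, -2.12 and -1.85, but with 75th percentile scaling Sin3b was at 0.23 and Mta1 and Mbd3 at -0.63 and -0.30, none called, while Sin3a, Chd4, Ncor1 and Rcor1 were called at 1.37, 1.34, 1.78 and 1.93. Relative to the median of all genes, the 3 called values were -0.35, -1.16 and -0.88. Of 8 cumulus and granulosa cell markers, 6 were well above background on all GV arrays and 3 on all MII arrays, with summed intensities of 20895 and 18820. Foxl2 (16486 and 15289) and Cyp19a1 (4014 and 3453) made up most of these sums, and Foxl2 was at 22989 in blastocysts. Fshr, Inhba and Inha were well above background on 3 GV arrays and 0 MII arrays, at mean intensities of 73.5, 82.0 and 114.9 against 7.84, 7.15 and 3.81. The part of these cells in this step was not tested.

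**Figure D5:**
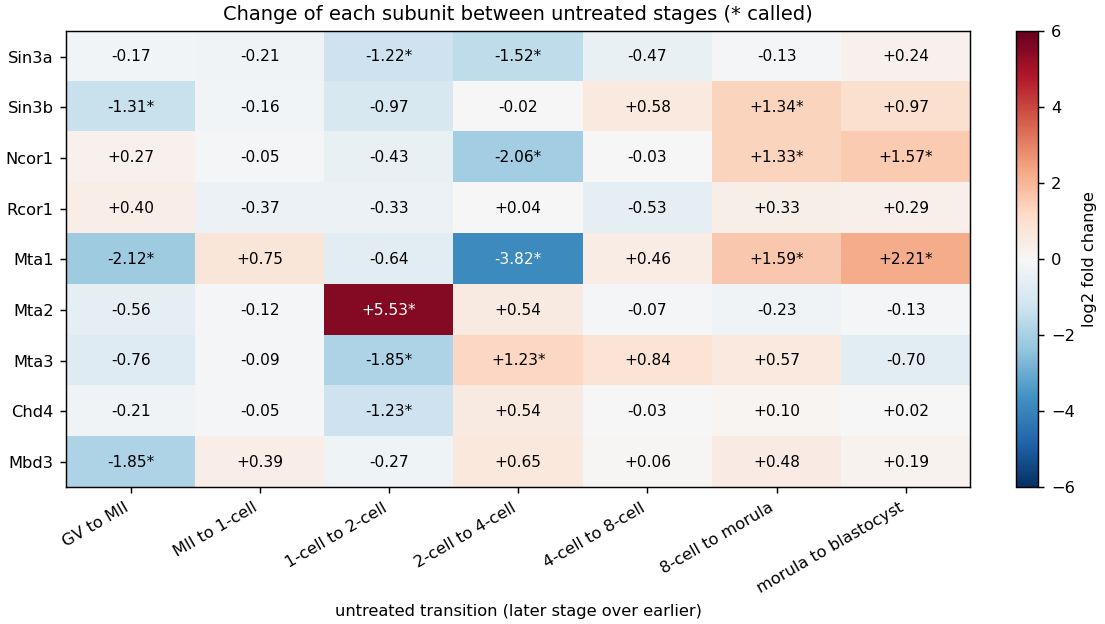
LFC of the 9 subunits (rows) between consecutive untreated stages (columns), printed in each cell and coloured from -6 to 6, with an asterisk for called values. The value of 5.53 for Mta2 from the 1-cell to the 2-cell stage stands out, followed by -3.82 for Mta1 from the 2-cell to the 4-cell stage.

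Of 40 other subunits of the same complexes that were measured, HDAC1, HDAC2 and HDAC3 included, 0 rose and 10 fell under T247 at the 2-cell stage (8.32% and 17.1% of all genes), and 1 rose and 9 fell under MGCD0103 (11.8% and 16.2% of all genes). With T247 the largest falls were those of Cdk2ap1 (-2.26, adjusted p = 1.01e-09), a small NuRD subunit, Rbbp4 (-1.65, adjusted p = 1.49e-08), a histone chaperone shared by Sin3 and NuRD, Suds3 of Sin3 (-1.47) and Tbl1x of NCoR (-1.43). With MGCD0103 they were Cdk2ap1 (-2.91, adjusted p = 5.41e-12), Tbl1x (-1.92), the deacetylase gene Hdac1 (-1.88, adjusted p = 9.1e-10) and Rcor2, an Rcor1 paralog (-1.85), and the only one that rose was Chd5, a Chd4 paralog (1.07), whose treated and control arrays overlapped. Some of these partners also rose in controls from the 1-cell to the 2-cell stage, where 5 rose and 15 fell (18.2% and 33.9% of all genes): Hdac1 by 6.31 (adjusted p = 1.93e-22), Cdk2ap1 by 3.44, Tbl1x by 3.20 and Arid4b of Sin3 by 2.10. Those that fell at that step included Chd5 (-3.65), Hdac3 (-3.22) and Sap30 of Sin3 (-2.51). At the 4-cell stage T247 left 0 partners higher and 3 lower, against 11% and 6.37% of all genes (Chd5, whose arrays overlapped, Rcor3 and Ctbp1, -1.11 to -1.02). At the 1-cell stage limma called 0 of 40 with either compound. In 2-cell embryos the 40 partners had a median LFC of -0.58 with T247 and -0.02 with MGCD0103 (-0.28 and 0.04 over all genes). From the 1-cell to the 2-cell stage in controls it was -0.65 (-0.49 over all genes). Partner counts and values come from the main normalization, and were not refitted with other scalings or without control 2-cell replicate 1. Over all genes the balance of higher and lower calls changed with scaling, as given above.

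The genes whose 13 condition means ran most like those of Mta2 were Syncrip (r = 0.995), E130309D02Rik (0.989) and Kdm3a (0.988), among 14740 genes that ranged over at least 1 log2 unit. For Mta1 they were Ms4a10 (0.998), Dennd4b (0.991) and Cic (0.990), and for Ncor1 Myo1d (0.986), Gnai2 (0.984) and Bphl (0.982). For Sin3a they were Cd36 (0.993), Ice1 (0.992) and Tor1a (0.991), and for Rcor1, whose range was smallest, the highest r was 0.914 (Ppp1r35). These values describe 13 points that share arrays and normalization.

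The promoters of Mta2 and Mta1 are shown because these paralogs had the largest changes among the 9 genes. RefSeq promoter windows of GRCm38.p6, 250 bases before to 50 bases after the start of the gene, were found for 8 of the 9 genes (11 windows); Mta3 had none. The Mta2 window is chr19:8941670-8941969 and the Mta1 window chr12:113098028-113098327, both on the plus strand. Capitals mark the GC box GGGCGG and the ETS motif CCGGAAG, searched on both strands along with the CCAAT box CCAAT, the TATA box TATAAA and an NRF1 motif.
Mta2: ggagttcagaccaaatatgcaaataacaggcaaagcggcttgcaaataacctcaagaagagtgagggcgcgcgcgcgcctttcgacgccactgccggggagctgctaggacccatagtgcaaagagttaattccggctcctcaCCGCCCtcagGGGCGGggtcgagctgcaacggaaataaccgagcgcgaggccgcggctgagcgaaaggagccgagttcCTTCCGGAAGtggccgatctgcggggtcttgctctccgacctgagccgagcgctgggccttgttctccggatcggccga
Mta1: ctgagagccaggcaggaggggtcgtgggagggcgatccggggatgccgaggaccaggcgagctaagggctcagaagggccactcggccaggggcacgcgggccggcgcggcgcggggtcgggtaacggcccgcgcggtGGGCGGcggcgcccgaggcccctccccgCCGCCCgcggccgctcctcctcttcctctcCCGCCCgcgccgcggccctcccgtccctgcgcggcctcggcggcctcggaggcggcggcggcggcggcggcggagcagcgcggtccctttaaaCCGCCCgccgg
The Mta2 window held 2 GC boxes and 2 ETS motifs, the latter overlapping on opposite strands, and the Mta1 window held 4 GC boxes. A GC box was present in 35.7% and an ETS motif in 8.86% of 32851 windows of the same length. The CCAAT box (37.4% of windows), the TATA box (13.6%) and the NRF1 motif (0.971%) were in neither. GC content was 61.7% for Mta2 and 81% for Mta1, against a median of 52.7%, and the windows held 30 and 50 CpG dinucleotides against a median of 7. A motif match is a description of these letters and no evidence of a bound factor.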

How the data were processed

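RNA of 39 pools of oocytes or embryos was labelled with Cy3 and hybridized by the authors to 1-colour Agilent 60-mer mouse arrays. The deposited intensity values (processed signals) had their background subtracted and spatial trends removed by Agilent Feature Extraction, and were not normalized between arrays. The submitters' processing notes give version 9.5.1.1 of this software and the file headers 10.7.1.1, with probe positions on mm9. The arrays are labelled as separate samples of 100 oocytes or embryos, and their number limits the precision. The deposited series matrix holds log2 values of the same arrays, processed by the authors with scale and centring stated nowhere in the file, and was used as an alternative.

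Following the methods of the study, a probe had to carry the positive and significant flag on 1 or more of the 3 arrays of all 13 conditions, and other values of kept probes (2.21%) were filled in from the covariance of the arrays. No filled value belongs to the probes that represent the 9 genes. Spots of a probe were averaged, probes were named by accession through RefSeq (27235 of 55681), by symbol (3581) or by synonym (565), and the brightest kept probe stood for a gene. Log2 signals underwent smooth quantile normalization by condition and were fitted by limma 3.58.1 (R 4.3.3) over all 39 arrays and 14825 genes with no replicate block. Calls required an LFC of 1 or more, up or down, with adjusted p below 0.05. The pipeline was tested on simulated data.

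The 9 genes were named in every comparison, partner subunits by count and by the 4 largest rises and falls among called genes whose arrays did not overlap (1 such gene is not reported here), and the 3 genes with the most similar condition means for each member, of which some are given. Members, lists and rules were chosen with earlier results of these data known. Replicate numbers coincide with slides for the untreated stages in the file headers. Deviations of same-numbered arrays correlated above 0.1 in all 3 pairs only for GV to MII (0.139 to 0.234) and for the 4-cell to 8-cell stage (0.165 to 0.243). In all untreated transitions but that from the 8-cell stage to the morula (2 of 3), each array nonetheless correlated best with its same-numbered array. Exon, intron and UTR positions of the probes were not used here. Alternatives covered normalization, background, filter, fill-in, probe choice, array weights, slide, replicate block, the series matrix and leaving out each array.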

Additional observations from a re-analysis of the deposited data

Results flagged for a closer look

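In 4 cases the effect of an inhibitor on a subunit differed between stages by a called amount, tested as a difference of differences in limma. For Mta2 the effect of T247 was lower at the 2-cell than at the 1-cell stage by -2.84 (SE 0.29, adjusted p = 1.52e-08), and that of MGCD0103 by -3.75 (SE 0.29, adjusted p = 3.88e-11). The T247 effect on Mta2 was higher again at the 4-cell than at the 2-cell stage, by 3.11 (SE 0.29, adjusted p = 2.9e-09). For Sin3b the MGCD0103 effect was higher at the 2-cell than at the 1-cell stage by 1.06 (SE 0.26, adjusted p = 0.00212). Among all genes these 3 differences were called in 20.2% (T247, 1-cell to 2-cell; 641 higher and 2354 lower, or 1417 and 967 with 75th percentile scaling), 23.2% (MGCD0103; 960 and 2474, or 1961 and 1669) and 27% (T247, 2-cell to 4-cell; 2857 and 1146, or 1636 and 1923).

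All 4 rest on the control 2-cell arrays, of which replicate 1 stood apart. Without it the Mta2 values were -3.30, -4.22 and 3.57 and the Sin3b value 1.46. The Sin3b difference was not called without control 1-cell replicate 3 (0.99), control 2-cell replicate 2 (0.86) or control 2-cell replicate 3 (0.82), and its second probe gave 0.80. Leaving out an array also brought in other members: without control 2-cell replicate 1, Sin3b was called at 1.02 and -1.30 for the 2 changes in the T247 effect, and Chd4 at 1.26 for MGCD0103 and -1.08 for T247 into the 4-cell stage. Chd4 was called at 1.05 for MGCD0103 without control 1-cell replicate 1, and Sin3b at -1.02 for T247 into the 4-cell stage without T247 4-cell replicate 3. The slides and scan batches of treated and control arrays differ, and their part in these differences cannot be told apart from treatment.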

How the results depend on the processing

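Of 25 called values of members, 12 stayed called in the same direction under every alternative run, the 6 of Mta2 among them: in 2-cell embryos -4.05 to -3.03 with T247 and -4.84 to -4.10 with MGCD0103, and 5.11 to 6.08 for the rise from the 1-cell stage. The alternatives without normalization between arrays, without or with a looser detection filter, with the 24 arrays of the treated stages alone, without fill-in, with the authors' series matrix and with slide as a random or fixed block moved no count of called members by over 1.5 times. The fixed slide block was run only on the 24 untreated arrays and their 7 transitions. Neither slide block can separate slide from treatment, because treated and control arrays shared no slide. Between-array scaling mattered most. With 75th percentile scaling and with quantile normalization alike, 1 member instead of 2 was called for T247 at the 2-cell stage, 0 instead of 1 for T247 at the 4-cell stage, 1 instead of 0 for MGCD0103 against T247 at the 2-cell stage, 2 instead of 4 from the 1-cell to the 2-cell stage, and 3 instead of 1 for both changes in the T247 effect; from the 8-cell stage to the morula 0 and 1 were called instead of 3. From GV to MII, 75th percentile scaling turned Sin3a (1.37), Sin3b (0.23) and Chd4 (1.34), and quantile normalization Sin3a (1.01). The cause was not tested.

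Probe choice turned Ncor1 (-1.40) and Sin3b (0.034) from GV to MII and Ncor1 (-0.41) from the 8-cell stage to the morula. Taken over all kept probes of a gene, 1 member was called for MGCD0103 at the 2-cell stage, 0 for T247 at the 4-cell stage, 1 into the morula and 1 for the change in the MGCD0103 effect. The mean of probes gave 0 for T247 at the 4-cell stage, 1 for MGCD0103 against T247 at the 2-cell stage, 1 into the morula and 1 for the change in the MGCD0103 effect, and normexp gave 0 for T247 at the 4-cell stage. Array weights, lowest for control 2-cell replicate 1, gave 2 and 3 for the changes in the T247 effect.

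Leaving out each array kept the counts of 12 of 17 comparisons within 1.5 times. The ranges were 1 to 3 for MGCD0103 at the 2-cell stage, 0 to 1 for T247 at the 4-cell stage, 1 to 2 and 1 to 3 for the changes in the T247 effect into the 2-cell and 4-cell stages, and 1 to 3 for the change in the MGCD0103 effect. Replicate numbers did not pair treated with control arrays (no comparison had all 3 correlations above 0.1), and with the replicate block 2 members were called with T247 and 2 with MGCD0103 in 2-cell embryos, as without it; the block changed no call on a member. With 3 arrays a condition the SE of a member LFC between conditions was 0.11 to 0.21, and Mta1 at the 4-cell stage lay near background.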
